A study of Mus musculus with 12 samples.

Results

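The genes described here are 9 regulators of the T helper lineages Th1, Th2 and Th17: Tbx21, Eomes, Runx3 and Il12rb2 for Th1, Gata3 and Il17rb for Th2, and Rora, Ahr and Il23r for Th17. They were chosen by symbol from the 19937 genes with a probe set annotated to them alone, and each of the 9 had 1 such probe set. Expression was measured in CD4+ T cells of the Peyer's patches, which are clusters of lymphoid tissue in the wall of the gut, on 12 Affymetrix mouse gene arrays, 3 for each of 4 sorted populations. All 12 samples came from mice carrying a bacterial artificial chromosome transgene, IL-21eGFP, in which green fluorescent protein (GFP) stands for interleukin 21. GFP therefore marks activity of the transgene and not the native cytokine. The study set out to compare T follicular helper (Tfh) cells with and without GFP.

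The 4 populations were GFP+ Tfh (GFP+CXCR5+PD1+), GFP- Tfh (GFP-CXCR5+PD1+), CXCR5+PD1- (GFP-CXCR5+PD1-) and CXCR5-PD1- (GFP-CXCR5-PD1-), and all were gated as CD4+, MHC II-negative and Epcam-negative. Strain background, treatment, age and whether a sample pooled several animals were not given in the sources used here. Nothing in the labels ties replicates to separate mice, so each p-value reflects the spread among the samples at hand, and that between replicates 1 and 2 may be technical. A characteristics field of the GFP+ Tfh samples reads CXCR5- and PD1-, against their titles and the sorting protocol. The groups follow the titles. Cxcr5 and Pdcd1 were higher in both Tfh gates together than in both PD1- gates by 2.92 and 2.09 log2 units. Cxcr5 RNA did not set the PD1- gates apart. It averaged 5.61 ± 0.37 in CXCR5+PD1- and 5.71 ± 0.43 in CXCR5-PD1- cells (SD, n = 3 each), below the array medians. Native Il21 RNA had mean log2 values of 10.60 ± 0.31 in GFP+ Tfh and 9.96 ± 0.34 in GFP- Tfh cells (SD, n = 3 each). Limma did not call that difference at an adjusted p under 0.05. The means were 6.50 in CXCR5+PD1- and 6.64 in CXCR5-PD1- cells, so GFP- Tfh cells were not without Il21 RNA. In bulk RNA of this kind, fewer cells of a type and less RNA per cell cannot be told apart.

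Replicate 3 of every group stood apart from replicates 1 and 2. Xist, which coats the inactive X chromosome, had log2 values of 10.7 to 11.3 on those 4 arrays, against 4.87 to 5.49 on the other 8. Eif2s3y, a Y-linked gene, had log2 values of 3.70 to 4.04 on the same 4 arrays and 8.59 to 9.30 on the other 8. For each of the 9 genes the difference between Tfh and PD1- cells is therefore also given within replicate numbers or from replicates 1 and 2 alone, and a fit with the Xist-high arrays as a block was added after seeing the data. The GFP+ Tfh arrays also varied most: their root mean square deviations from the group mean over all tested genes were 0.342, 0.287 and 0.405 log2 units, against 0.163 to 0.204 on the other 9 arrays. Of 7 general T cell markers, 5 had a probe set. The median of these 5 lay 4.34 to 4.81 log2 units above the array median in GFP+ Tfh cells and 4.57 to 4.68 above it in GFP- Tfh cells. It lay 4.49 to 4.70 above it in CXCR5+PD1- cells and 4.46 to 4.81 in CXCR5-PD1- cells. Of the 5, limma called 2 higher in both Tfh gates than in both PD1- gates, and 3 did not pass. Over all tested genes it called 5.05% higher. Cd4 averaged 10.40 and 10.20 in GFP+ and GFP- Tfh cells, against 9.73 and 9.80 in CXCR5+PD1- and CXCR5-PD1- cells. The number of arrays limits the precision of every value.

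Naive CD4+ T cells take up different helper programs under different cytokines. T-bet, the product of Tbx21, directs the Th1 program of interferon gamma production with its relative Eomes and with Runx3, and IL-12 acts through a receptor that contains the Il12rb2 chain. GATA3 directs the Th2 program, and Il17rb is a chain of the receptor for IL-25, a cytokine that promotes type 2 responses. ROR alpha, the product of Rora, takes part in driving the Th17 program, which is held in place by IL-23 through its receptor chain Il23r and is promoted by the ligand-activated factor AHR. Tfh cells follow a separate program under Bcl6, and in the intestine Th17 cells are known to contribute to the Tfh cells of Peyer's patches in mice.

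Promoter sequences are shown for the 3 genes whose values carry most of what follows and that have a window in the RefSeq table: Runx3, Rora and Il23r. Each window runs from 250 bases before the annotated start to 50 after it, on build GRCm38.p6, and is written 5′ to 3′ in the direction of the gene. Of the 9 genes 8 matched the table, with 9 windows, and Ahr had none. Capitals mark ACCACA, a core bound by RUNX factors, in Runx3, GCGTG, the core bound by AHR with its partner ARNT, read as CACGC on the opposite strand, in Rora, and AGGTCA, the core bound by ROR receptors, also read as TGACCT, in Il23r.
Runx3, first of its windows, chr4:135120395-135120694, plus strand: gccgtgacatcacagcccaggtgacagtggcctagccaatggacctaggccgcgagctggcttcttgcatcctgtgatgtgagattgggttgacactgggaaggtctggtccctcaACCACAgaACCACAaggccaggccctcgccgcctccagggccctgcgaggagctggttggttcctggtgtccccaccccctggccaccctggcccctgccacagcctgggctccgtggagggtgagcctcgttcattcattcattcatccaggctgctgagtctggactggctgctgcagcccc
Rora, chr9:68653536-68653835, plus strand: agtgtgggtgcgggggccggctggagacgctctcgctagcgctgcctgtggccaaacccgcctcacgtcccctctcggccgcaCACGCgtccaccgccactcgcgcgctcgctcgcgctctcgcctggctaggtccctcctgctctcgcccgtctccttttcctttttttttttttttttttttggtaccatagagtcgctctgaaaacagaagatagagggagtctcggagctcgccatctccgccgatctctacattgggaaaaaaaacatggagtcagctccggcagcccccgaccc
Il23r, chr6:67491806-67492105, minus strand: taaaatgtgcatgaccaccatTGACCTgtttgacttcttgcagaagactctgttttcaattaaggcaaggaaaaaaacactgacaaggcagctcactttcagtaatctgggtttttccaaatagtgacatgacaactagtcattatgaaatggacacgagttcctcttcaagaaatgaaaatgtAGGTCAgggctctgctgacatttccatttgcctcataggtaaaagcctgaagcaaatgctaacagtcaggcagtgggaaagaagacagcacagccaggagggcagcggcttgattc
The Runx3 window held ACCACA 134 and 126 bases before the start. The second Runx3 window, chr4:135152295-135152594, held no match, and the probe set does not tell these 2 starts apart. The Rora window held its GCGTG core 167 bases before the start, and the Il23r window held the AGGTCA core 229 and 66 bases before the start, on opposite strands. Of 32851 windows of the same length, counting both strands, 16.8% held at least 1 ACCACA and 1.81% held 2 or more, 16.3% held at least 1 AGGTCA and 1.81% held 2 or more, and 32.4% held at least 1 GCGTG. Il12rb2 held 4 GCGTG cores and Il17rb held 1. The T-box core TCACACC and the GATA core AGATAA were also searched, and Gata3, Eomes and Tbx21 held none of the 5 motifs. A match describes the letters and does not show that a factor is bound there.

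**Figure D1:**
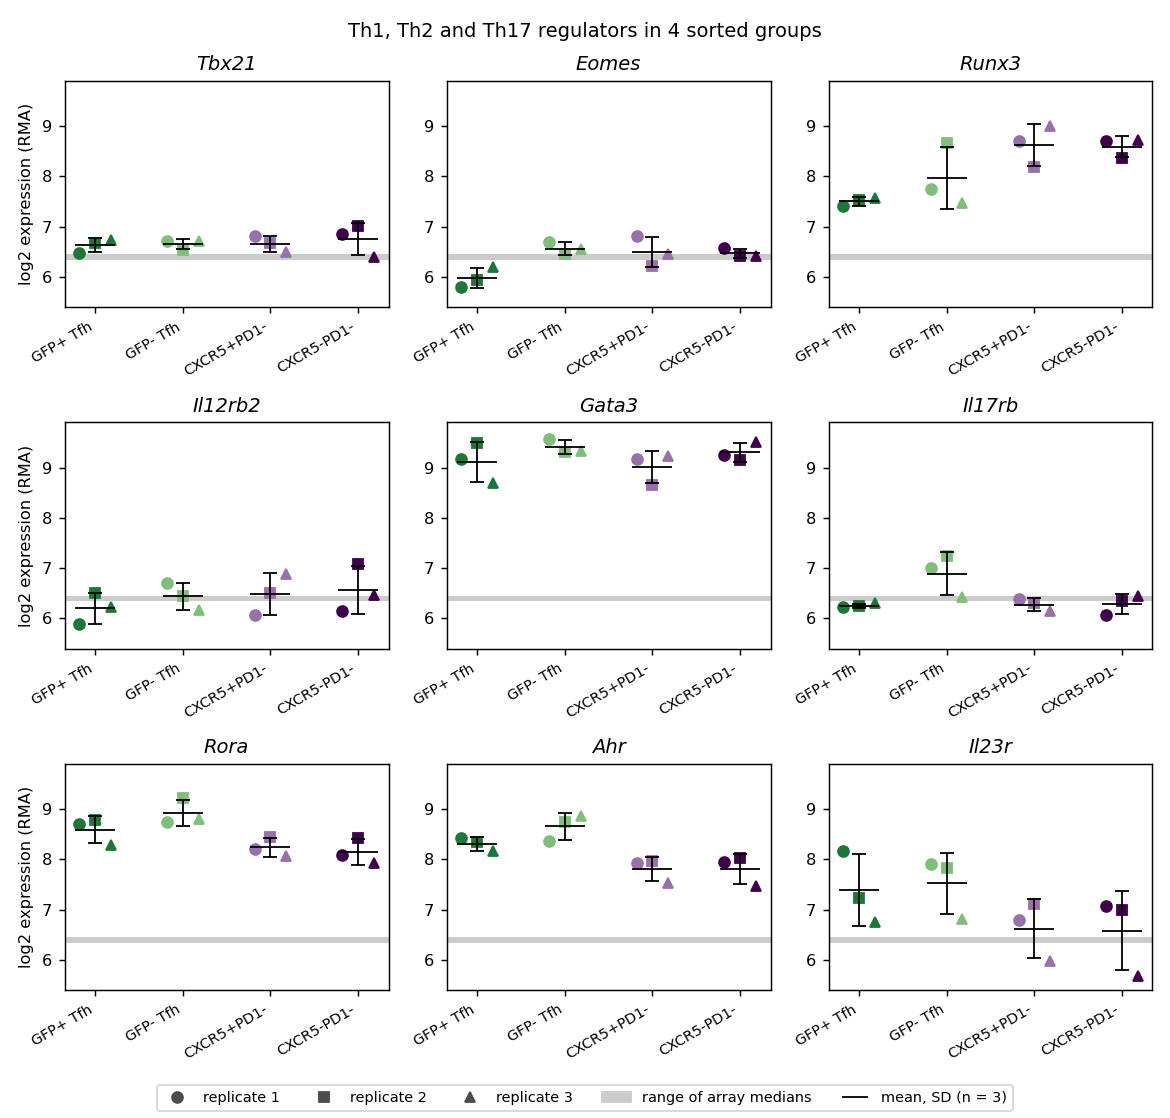
Log2 expression of the 9 genes (vertical axis) in GFP+ Tfh, GFP- Tfh, CXCR5+PD1- and CXCR5-PD1- samples (horizontal axis), with 1 point for each array and lines for the group mean and SD. All 6 Tfh arrays of Ahr lie above its 6 PD1- arrays, while the 4 groups of Tbx21 overlap.

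Ahr and Rora were higher in Tfh cells, taking the 6 arrays of both Tfh gates against the 6 of both PD1- gates, and Runx3 was lower. Ahr was 1.60-fold higher, Rora 1.48-fold higher and Runx3 1.83-fold lower. Limma called these 3 of 9 genes at an adjusted p under 0.05, 2 of them higher and 1 lower, where it called 10.4% of all 11240 genes tested, 5.05% higher and 5.33% lower. The other 6 genes, Il23r among them, did not pass. The median difference of the 9 was 0.10 log2 units, against -0.016 over all tested genes.

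Ahr encodes a factor that senses dietary and microbial ligands as well as pollutants. It had log2 values of 8.42, 8.35 and 8.16 in GFP+ Tfh cells and 8.36, 8.75 and 8.87 in GFP- Tfh cells, against 7.93, 7.97 and 7.53 in CXCR5+PD1- cells and 7.94, 8.02 and 7.47 in CXCR5-PD1- cells. Every Tfh array was above every PD1- array, a pattern of higher values that 3.49% of all tested genes shared, and the lowest PD1- value came from replicate 3 in both PD1- groups. The difference was 0.68 ± 0.13 log2 units (SE; 95% interval 0.39 to 0.97; limma adjusted p = 0.00618). Within replicate numbers 1, 2 and 3 the Tfh arrays exceeded the PD1- arrays by 0.45, 0.56 and 1.01. The order of the group means was GFP- Tfh, GFP+ Tfh, CXCR5+PD1- and CXCR5-PD1-, and among neighbours in it the GFP+ Tfh and CXCR5+PD1- arrays did not overlap. The means of CXCR5+PD1- and CXCR5-PD1- cells were both 7.81, with SDs of 0.24 and 0.30 (n = 3 each). From replicates 1 and 2 of every group alone the difference was 0.51 (limma adjusted p = 0.0357), and the call held in all 22 alternatives (0.00466 to 0.0357).

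Rora encodes a nuclear receptor that acts in mouse Th17 cells and is also needed by group 2 innate lymphoid cells in mice. Its log2 values were 8.70, 8.78 and 8.29 in GFP+ Tfh cells and 8.75, 9.22 and 8.80 in GFP- Tfh cells, against 8.21, 8.44 and 8.07 in CXCR5+PD1- cells and 8.08, 8.43 and 7.93 in CXCR5-PD1- cells. Only replicate 3 of GFP+ Tfh cells fell within the range of the PD1- arrays. The difference was 0.56 ± 0.13 log2 units (SE; 95% interval 0.27 to 0.85; limma adjusted p = 0.0185). It was 0.58, 0.57 and 0.54 within replicate numbers 1, 2 and 3. The call was lost with replicates 1 and 2 of every group alone, at a difference of 0.57 (limma adjusted p = 0.0518), and when replicate 3 of CXCR5+PD1- cells (0.0535) or of CXCR5-PD1- cells (0.0513) was left out.

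Il23r encodes the chain of the IL-23 receptor that is specific to that cytokine. Its log2 values were 8.16, 7.24 and 6.75 in GFP+ Tfh cells and 7.91, 7.83 and 6.82 in GFP- Tfh cells, against 6.79, 7.11 and 5.97 in CXCR5+PD1- cells and 7.08, 7.0 and 5.67 in CXCR5-PD1- cells. Replicate 3 was the lowest array of every group, and the Tfh and PD1- arrays overlapped. The difference was 0.84 ± 0.33 log2 units (SE; 95% interval 0.12 to 1.57) and did not pass (limma adjusted p = 0.154). Within replicate numbers 1, 2 and 3 it was 1.10, 0.47 and 0.96. With replicates 1 and 2 of every group alone it was 0.79 and passed (limma adjusted p = 0.0495). With the Xist-high arrays as a block it was again 0.84 and passed (limma adjusted p = 0.00332).

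**Figure D2:**
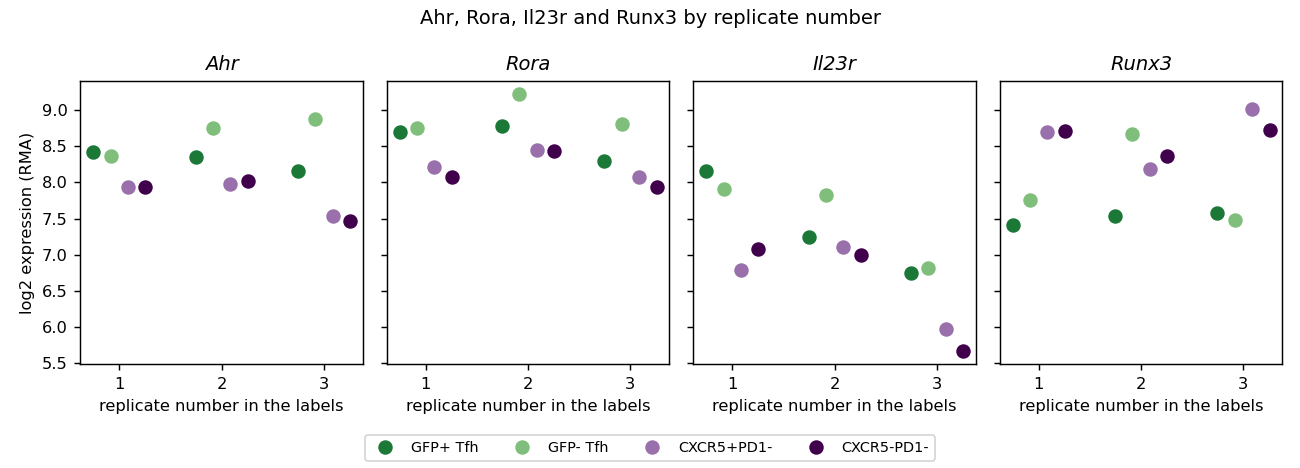
Log2 expression of Ahr, Rora, Il23r and Runx3 (vertical axis) by the replicate number in the labels (horizontal axis), with 1 point for each array, coloured by sorted group. Il23r lies lowest in replicate 3 of all 4 groups, and within each replicate number the mean of the Tfh arrays of Ahr, Rora and Il23r is above that of the PD1- arrays.

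Innate-like lymphocytes also use ROR factors and AHR, and their markers were measured beside these genes. Of 9 markers of NKT, gamma delta T and innate lymphoid cells, 5 had a probe set and 3 passed the filter. The median of the 5 lay 0.64 to 0.77 log2 units above the array median in GFP+ Tfh cells and 0.60 to 0.89 above it in GFP- Tfh cells. It lay 0.29 to 0.47 above it in CXCR5+PD1- cells and 0.13 to 0.64 in CXCR5-PD1- cells. Of the 3 tested, 1 was called higher in both Tfh gates, where limma called 5.05% of all tested genes higher. Kit, a receptor found on several innate lymphoid cells, was higher in both Tfh gates (0.86 log2 units, limma adjusted p = 0.00132). Zbtb16, the factor PLZF that marks NKT cells, differed by 0.30 and did not pass (limma adjusted p = 0.0997). Sox13, a factor of gamma delta T cells, differed by -0.02 (limma adjusted p = 0.956). The untested Klrb1b and Blk differed by -0.20 and -0.02, and Klrb1b was below the array median on all 12 arrays. The part of such cells in the Ahr, Rora and Il23r values was not tested.

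Among the Th1 regulators, Runx3 fell in Tfh cells and Tbx21, Eomes and Il12rb2 did not pass the test. Runx3 partners T-bet in Th1 cells and silences Cd4 in CD8 T cells. It had log2 values of 7.41, 7.54 and 7.58 in GFP+ Tfh cells and 7.75, 8.66 and 7.48 in GFP- Tfh cells, against 8.70, 8.18 and 9.01 in CXCR5+PD1- cells and 8.71, 8.36 and 8.72 in CXCR5-PD1- cells. Replicate 2 of GFP- Tfh cells was the only Tfh array within the range of the PD1- arrays. The difference was -0.88 ± 0.20 log2 units (SE; 95% interval -1.31 to -0.44; limma adjusted p = 0.0142). Within replicate numbers 1, 2 and 3 it was -1.12, -0.17 and -1.34. With replicates 1 and 2 of every group alone it was -0.64 and no longer passed (limma adjusted p = 0.124).

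Of the CD8 and NK cell markers, 2 of 6 tested were lower in both Tfh gates, where limma called 5.33% of all tested genes lower. The median of the 10 CD8 and NK cell markers, set against the array median, lay at -0.43 to -0.18 log2 units in GFP+ Tfh cells and -0.25 to -0.16 in GFP- Tfh cells, against -0.01 to 0.09 in CXCR5+PD1- cells and 0.23 to 0.62 in CXCR5-PD1- cells. Of the 6 that passed the filter, Prf1, the pore-forming protein perforin, and Cd8b1, a chain of CD8, were lower in both Tfh gates, with differences of -0.62 and -0.46 log2 units (limma adjusted p = 0.00535 and 0.0478). Klrb1c, Klrd1, Ncr1 and Klrg1, receptors of NK and effector cells, were below the array median on all 12 arrays and were not tested. Klrg1 alone of these was highest in GFP- Tfh cells, with a mean of 5.77. Its means were 4.88 in GFP+ Tfh, 5.08 in CXCR5+PD1- and 5.14 in CXCR5-PD1- cells. Gzmb differed by -0.93, Gzma by -0.67, Tyrobp by -0.35 and Cd8a by -0.32, and these did not pass (limma adjusted p = 0.119 to 0.596). The part of such cells in the Runx3 values was not tested.

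Tbx21 did not pass between Tfh and PD1- cells. Its log2 values were 6.48, 6.68 and 6.74 in GFP+ Tfh cells and 6.71, 6.54 and 6.71 in GFP- Tfh cells, against 6.82, 6.67 and 6.50 in CXCR5+PD1- cells and 6.86, 7.01 and 6.40 in CXCR5-PD1- cells. All 4 groups overlapped, and the means ran from 6.63 ± 0.14 in GFP+ Tfh cells to 6.75 ± 0.32 in CXCR5-PD1- cells (SD, n = 3 each). The difference of both Tfh gates from both PD1- gates was -0.07 ± 0.11 log2 units (SE; 95% interval -0.32 to 0.18; limma adjusted p = 0.837). Within replicate numbers 1, 2 and 3 it was -0.25, -0.23 and 0.28, and with replicates 1 and 2 of every group alone it was -0.24 (limma adjusted p = 0.248). These values lay just above the array medians of 6.34 to 6.45, where the processing compresses differences.

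Eomes, a T-box factor of cytotoxic and memory cells, was lowest in GFP+ Tfh cells. Its log2 values were 5.80, 5.93 and 6.19 there and 6.70, 6.45 and 6.55 in GFP- Tfh cells, against 6.82, 6.21 and 6.46 in CXCR5+PD1- cells and 6.58, 6.42 and 6.41 in CXCR5-PD1- cells. The 3 GFP+ Tfh arrays lay below all other 9 and below the array median, so the size of this gap may be understated. Both Tfh gates differed from both PD1- gates by -0.21 ± 0.11 log2 units (SE; 95% interval -0.46 to 0.04; limma adjusted p = 0.332). That difference was -0.29 with replicates 1 and 2 of every group alone (limma adjusted p = 0.318).

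Il12rb2, the IL-12 receptor chain that marks cells able to respond as Th1, ran from 0.46 log2 units below the array median to 0.65 above it. It had log2 values of 5.88, 6.50 and 6.22 in GFP+ Tfh cells and 6.70, 6.45 and 6.17 in GFP- Tfh cells, against 6.06, 6.51 and 6.88 in CXCR5+PD1- cells and 6.14, 7.08 and 6.47 in CXCR5-PD1- cells. All 4 groups overlapped, and both Tfh gates differed from both PD1- gates by -0.20 ± 0.19 log2 units (SE; 95% interval -0.62 to 0.21; limma adjusted p = 0.644). Within replicate numbers 1, 2 and 3 the difference was 0.19, -0.32 and -0.48, and with replicates 1 and 2 of every group alone it was -0.07 (limma adjusted p = 0.896). Il12rb2 and Il23r are neighbours on chromosome 6 with 0 protein-coding genes between them. Their differences over all 12 arrays were -0.20 for Il12rb2 and 0.84 for Il23r, and neither passed.

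The Th2 regulators did not pass between Tfh and PD1- cells. Gata3, which is also used by all developing T cells and by regulatory T cells, had log2 values of 9.17, 9.49 and 8.70 in GFP+ Tfh cells and 9.57, 9.32 and 9.33 in GFP- Tfh cells, against 9.18, 8.65 and 9.23 in CXCR5+PD1- cells and 9.26, 9.15 and 9.52 in CXCR5-PD1- cells. The groups overlapped, and the difference was 0.10 ± 0.15 log2 units (SE; 95% interval -0.23 to 0.42; limma adjusted p = 0.812). Within replicate numbers 1, 2 and 3 it was 0.15, 0.51 and -0.36, and with replicates 1 and 2 of every group alone it was 0.33 (limma adjusted p = 0.257). Of 8 regulatory T cell markers, limma called 2 higher and 2 lower in both Tfh gates. Over all tested genes it called 5.05% higher and 5.33% lower. The median difference of the 8 was 0.02 log2 units. The part of regulatory T cells in the Gata3 values was not tested.

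Il17rb had its highest values in 2 of the 3 GFP- Tfh arrays and lay near the array median elsewhere. Its log2 values were 6.22, 6.24 and 6.30 in GFP+ Tfh cells and 7.01, 7.24 and 6.42 in GFP- Tfh cells, against 6.39, 6.30 and 6.14 in CXCR5+PD1- cells and 6.07, 6.35 and 6.44 in CXCR5-PD1- cells. Replicates 1 and 2 of GFP- Tfh cells stood above the other 10 arrays, and replicate 3 did not. Both Tfh gates differed from both PD1- gates by 0.29 ± 0.13 log2 units (SE; limma adjusted p = 0.231), and by 0.39, 0.41 and 0.07 within replicate numbers 1, 2 and 3. Replicates 1 and 2 of every group alone gave 0.40 (limma adjusted p = 0.0725). The GFP- Tfh cells alone differed from the CXCR5-PD1- cells by 0.60 ± 0.19 (SE; limma adjusted p = 0.121). That gap ran from 0.43 to 0.91 over 16 alternatives and was called in 3 of them, among them both that leave out the low replicate 3 of GFP- Tfh cells (limma adjusted p = 0.0129 to 0.413). Il17rb passed the filter on 3 arrays, replicates 1 and 2 of GFP- Tfh cells and replicate 3 of CXCR5-PD1- cells. It thus entered the test mainly through the arrays where it was high, and these calls are not independent of the filter.

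**Figure D3:**
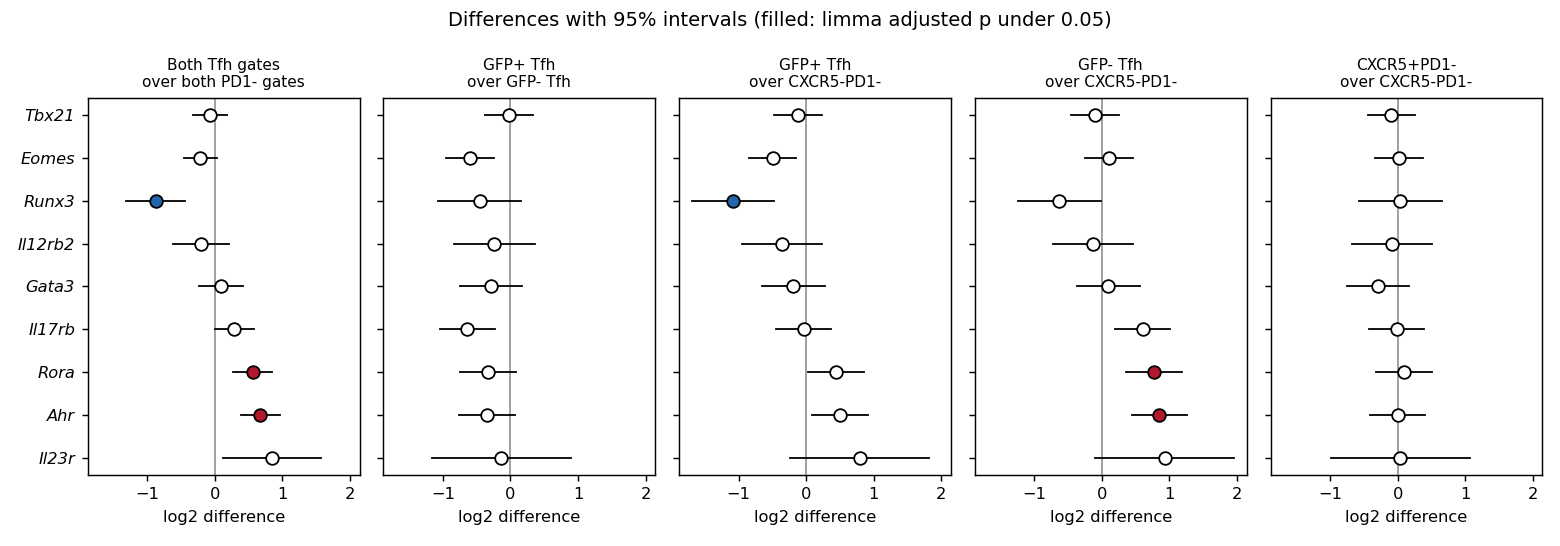
Log2 differences of the 9 genes (horizontal axes) with 95% intervals in 5 comparisons of the sorted groups, with points filled red (higher) or blue (lower) where the limma adjusted p is under 0.05. Ahr and Rora are filled above 0 and Runx3 below 0 for both Tfh gates over both PD1- gates, and no point is filled for GFP+ Tfh over GFP- Tfh.

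Between GFP+ and GFP- Tfh cells none of the 9 genes passed, where limma called 0.0445% of all tested genes, 5 in number and each lower in GFP+ Tfh cells. All 9 differences were below 0, with a median of -0.33, against a median of -0.018 over all tested genes, of which 53.7% were below 0. Tbx21 and Il23r each changed sign in 3 alternatives, and the other 7 stayed below 0 in all that were run. Eomes and Il17rb had every GFP+ Tfh array below every GFP- Tfh array, a pattern that 5.65% of all tested genes shared. Eomes averaged 5.97 ± 0.20 in GFP+ Tfh cells and 6.57 ± 0.13 in GFP- Tfh cells (SD, n = 3 each), a difference of -0.60 ± 0.16 log2 units (SE; limma adjusted p = 0.416). Il17rb averaged 6.25 ± 0.04 in GFP+ Tfh cells and 6.89 ± 0.42 in GFP- Tfh cells, a difference of -0.64 ± 0.19 (SE; limma adjusted p = 0.431).

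The remaining differences were -0.45 ± 0.28 log2 units for Runx3, -0.35 ± 0.19 for Ahr, -0.33 ± 0.19 for Rora, -0.29 ± 0.21 for Gata3, -0.24 ± 0.27 for Il12rb2, -0.14 ± 0.47 for Il23r and -0.02 ± 0.16 for Tbx21 (SE). Their limma adjusted p-values ran from 0.697 to 0.978. Without replicate 2 of GFP- Tfh cells the Runx3 difference was -0.11. Of 8 regulatory T cell markers, 1 was called in this comparison. The median of the 8 lay 0.44 to 0.61 log2 units above the array median in GFP+ Tfh cells, against 1.62 to 1.86 in GFP- Tfh cells. Il2ra, the alpha chain of the IL-2 receptor, was lower in GFP+ Tfh cells, with a difference of -2.72 ± 0.28 log2 units (SE; limma adjusted p = 0.00451), and Foxp3, the factor that defines regulatory T cells, differed by -0.64 ± 0.18 and did not pass (limma adjusted p = 0.416). Itgae, Capg and Nrp1 differed by -1.34, -0.90 and -0.46, and Tnfrsf18, Ctla4 and Ikzf2 by -0.12, 0.03 and 0.08, and these did not pass (limma adjusted p = 0.22 to 0.973). Lyz2, a lysozyme of myeloid cells, averaged 7.08 ± 0.72 in GFP+ Tfh cells and 5.70 ± 0.13 in GFP- Tfh cells (SD, n = 3 each), a difference of 1.38 ± 0.38 that did not pass (SE; limma adjusted p = 0.416), although the arrays did not overlap. The other 8 myeloid markers differed by -0.12 (Fcer1g) to 0.29 (C1qb), and of these Fcer1g and Cd68 were tested and did not pass. The part of regulatory T cells or myeloid cells in the Eomes, Il17rb and Gata3 values was not tested.

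Set against CXCR5-PD1- cells, the 2 Tfh gates were compared with the same 3 arrays, so their values are given side by side and are not independent. Ahr differed by 0.50 ± 0.19 log2 units in GFP+ Tfh cells (SE; limma adjusted p = 0.164) and by 0.85 ± 0.19 in GFP- Tfh cells (0.0261), and in each gate all 3 arrays lay above all CXCR5-PD1- arrays, as they did for 7.99% of tested genes in GFP+ Tfh cells and 11.4% in GFP- Tfh cells. Rora differed by 0.44 ± 0.19 in GFP+ Tfh cells (limma adjusted p = 0.225) and by 0.78 ± 0.19 in GFP- Tfh cells (0.0432). Runx3 differed by -1.08 ± 0.28 in GFP+ Tfh cells (limma adjusted p = 0.0426) and by -0.63 ± 0.28 in GFP- Tfh cells (0.357), or -0.98 there without replicate 2 of GFP- Tfh cells (0.0554). Il23r differed by 0.80 ± 0.47 in GFP+ Tfh cells (limma adjusted p = 0.413) and by 0.93 ± 0.47 in GFP- Tfh cells (0.461). Thus 1 of 9 genes was lower in GFP+ Tfh cells, where 3.75% of all tested genes were, and 2 were higher in GFP- Tfh cells, where 2.22% were. The tests of the difference between the gates are those of GFP+ over GFP- Tfh above, and none passed for these genes.

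With the Xist-high arrays as a block, Il23r was called in both gates (limma adjusted p = 0.0442 in GFP+ Tfh and 0.029 in GFP- Tfh cells) and Runx3 in GFP+ Tfh cells was not (0.05 after rounding). The calls were also lost when arrays were left out. Leaving out any 1 of the 6 replicates ended the Runx3 call in GFP+ Tfh cells (limma adjusted p = 0.0593 to 0.139), as did using replicates 1 and 2 of every group alone (0.123). Its difference stayed between -1.20 and -1.02 log2 units under the 17 alternatives run. Ahr in GFP- Tfh cells lost it without 4 of the 6 replicates (replicates 2 and 3 of GFP- Tfh cells and 1 and 3 of CXCR5-PD1- cells; limma adjusted p = 0.0536 to 0.115). Leaving out any replicate of either group but replicate 2 of CXCR5-PD1- cells ended the Rora call in GFP- Tfh cells (limma adjusted p = 0.0729 to 0.184). With replicates 1 and 2 of every group alone Ahr differed by 0.58 in GFP- Tfh cells (limma adjusted p = 0.142).

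The CXCR5+PD1- and CXCR5-PD1- cells showed no call in any of the 9 genes. Cxcr5 RNA itself averaged 5.61 and 5.71 in these gates. Limma called 0 of 11240 genes here, 0% of those tested, and 137 genes had an unadjusted p under 0.05, 1.22% of those tested. The differences of the 9 genes ran from -0.29 ± 0.21 log2 units for Gata3 to 0.09 for Rora (SE), and that of Ahr was 0.00.

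Genes that work with the 9 regulators were followed in lists of receptors, signal transducers and effectors, again with both Tfh gates set against both PD1- gates. Of 16 Th1 partners, 14 had a probe set annotated to them alone, 13 were tested, 2 rose and 3 fell, and the median was -0.02 log2 units; over all tested genes 5.05% rose and 5.33% fell. Jak2, a kinase of the IL-12 and IL-23 receptors and of the interferon gamma receptor, rose by 1.31 ± 0.12 log2 units (SE, limma adjusted p = 2.56e-05). Its means were 11.29 ± 0.19 in GFP+ Tfh cells and 11.42 ± 0.27 in GFP- Tfh cells, against 10.02 ± 0.20 in CXCR5+PD1- and 10.07 ± 0.15 in CXCR5-PD1- cells (SD, n = 3 each). Stat4, which carries the IL-12 signal, rose by 0.69 ± 0.17 (limma adjusted p = 0.0232). Of the chains of the interferon gamma receptor, Ifngr2 fell by 2.24 ± 0.22 (limma adjusted p = 4.06e-05) and Ifngr1 fell by 1.07 ± 0.27 (0.0252). Il18r1, a chain of the IL-18 receptor, fell by 1.41 ± 0.33 (limma adjusted p = 0.0166). The Ifngr1 and Stat4 calls were each lost in 6 of 22 alternatives, with limma adjusted p-values there of 0.0633 to 0.148 for Ifngr1 and 0.0561 to 0.0737 for Stat4, and each lost it without replicate 3 of CXCR5+PD1- or of CXCR5-PD1- cells. The Jak2, Ifngr2 and Il18r1 calls held in all 22.

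Of 14 Th2 partners, 13 had a probe set, 9 were tested, 1 rose and 2 fell, with a median of 0.03 log2 units. Il4, a cytokine of Th2 and of Tfh cells, rose by 3.46 ± 0.49 (SE; limma adjusted p = 0.000775). Its means were 9.04 ± 1.91 in GFP+ Tfh cells and 10.10 ± 0.37 in GFP- Tfh cells, against 6.32 ± 0.10 in CXCR5+PD1- and 5.90 ± 0.55 in CXCR5-PD1- cells (SD, n = 3 each). Il4ra, the receptor chain for the same cytokine, fell by 1.84 ± 0.16 (limma adjusted p = 2.25e-05), and Il17ra, which joins Il17rb in the IL-25 receptor, fell by 1.01 ± 0.14 (0.000775). Ccr4, a chemokine receptor of Th2 cells, differed by 0.68 ± 0.21 and did not pass (limma adjusted p = 0.0586).

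Of 13 Th17 partners, 10 had a probe set of their own and all 10 were tested, of which 4 rose and 1 fell, with a median of 0.45 log2 units. Hif1a, the oxygen-sensing factor that favours the Th17 program in mice, rose by 1.32 ± 0.09 (SE; limma adjusted p = 2.76e-06), with means of 11.80 ± 0.10 in GFP+ Tfh cells and 11.71 ± 0.14 in GFP- Tfh cells, against 10.44 ± 0.16 in CXCR5+PD1- and 10.43 ± 0.07 in CXCR5-PD1- cells (SD, n = 3 each). Batf, an AP-1 factor needed by both Th17 and Tfh cells in mice, rose by 0.62 ± 0.10 (limma adjusted p = 0.00155). Il6st, the signalling chain of the IL-6 receptor, rose by 0.60 ± 0.09 (limma adjusted p = 0.00121), and Ccr6, a chemokine receptor of Th17 cells, by 0.76 ± 0.17 (0.0124). Il6ra, the IL-6-binding chain, which was singled out after its values were seen, fell by 0.35 ± 0.10 (limma adjusted p = 0.0476) and lost that call in 14 of 22 alternatives. Il17a, the signature cytokine of Th17 cells and likewise singled out, differed by 0.62 ± 0.24 and did not pass (limma adjusted p = 0.136).

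**Figure D4:**
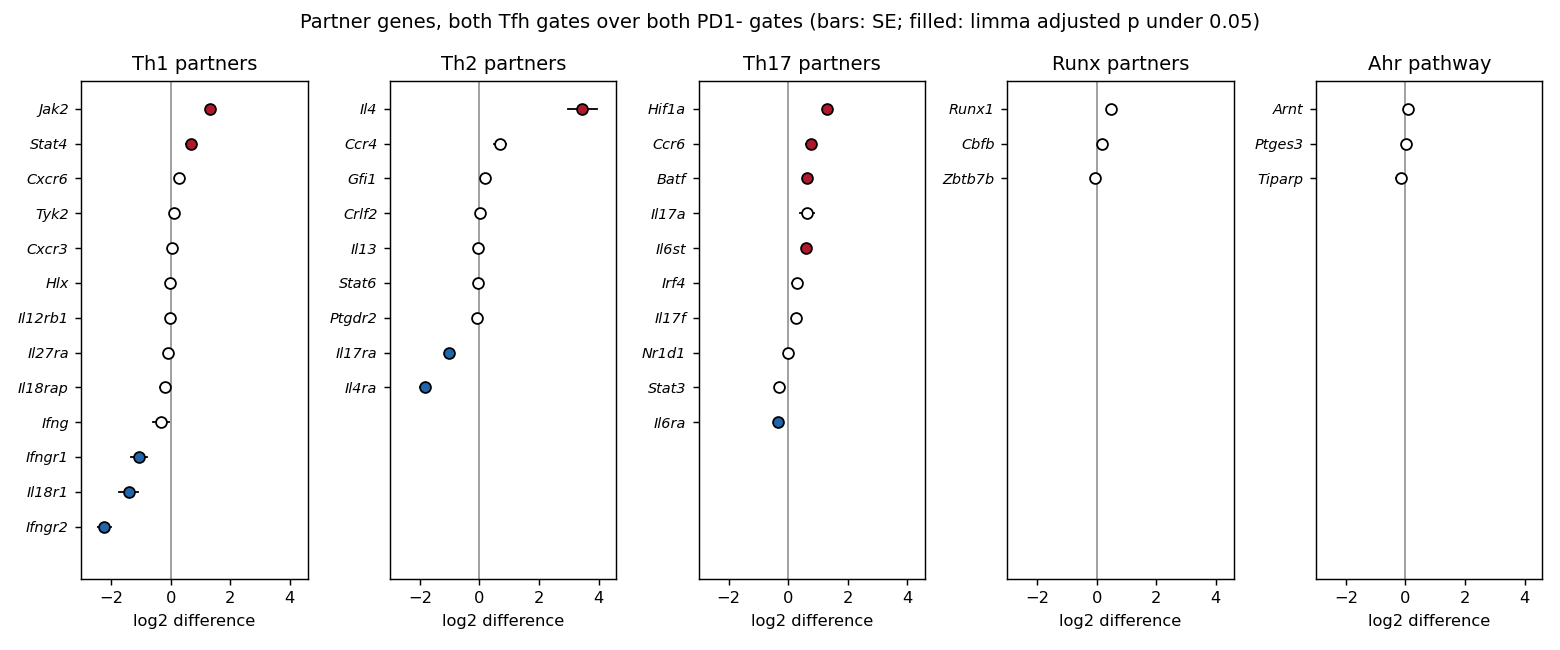
Log2 differences of both Tfh gates over both PD1- gates (horizontal axes) for tested partner genes of the Th1, Th2, Th17, Runx and Ahr lists, with bars for the SE and points filled red (higher) or blue (lower) where the limma adjusted p is under 0.05. Hif1a, Jak2 and Il4 lie above 1, and Ifngr2, Il4ra, Il18r1, Ifngr1 and Il17ra lie below -1.

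The partners of Runx3 and Ahr themselves did not pass. Of 4 Runx partners 3 were tested: Runx1, a second RUNX factor of T cells, differed by 0.48 ± 0.15 log2 units (SE; limma adjusted p = 0.0580), Cbfb, the subunit that all RUNX factors share, by 0.18 (0.480), and Zbtb7b, the CD4-lineage factor ThPOK that opposes Runx3 in the thymus, by -0.07 (0.792). Runx1 and Runx3 thus had differences of opposite sign, 0.48 and -0.88. Of 9 genes of the AHR pathway, 7 had a probe set and 3 were tested. Arnt, the partner with which AHR binds DNA, differed by 0.08 (limma adjusted p = 0.743) and Tiparp, an AHR target, by -0.17 (0.681). Cyp1a1, Cyp1b1, Ahrr and Nqo1, targets that ligand-bound AHR is known to induce, were below the array median on all 12 arrays. Tiparp was above it on all 12, with a mean of 9.43.

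Likeness to each of the 3 genes called in Tfh cells was measured as the root mean square difference of centred log2 values over the 12 arrays, against 10551 other tested genes. The profile nearest to Ahr was that of Trmt61b, at 0.138 log2 units, followed by Kif13a at 0.153. Kif13a, a kinesin motor, was nearest to Rora as well, at 0.110, followed by Ern1, a sensor of unfolded protein in the endoplasmic reticulum, at 0.152. The profile nearest to Runx3 was that of Washc4, a subunit of the WASH complex on endosomes, at 0.274, followed by Gbp11 at 0.285, a member of a multigene family whose probes may not separate its copies. For scale, the SD over the 12 arrays was 0.43 for Ahr, 0.38 for Rora and 0.59 for Runx3. Between both Tfh gates and both PD1- gates, Kif13a differed by 0.62 log2 units, Trmt61b by 0.57, Ern1 by 0.43, Washc4 by -0.67 and Gbp11 by -0.85, directions that their choice by likeness over the same arrays fixed.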

How the data were processed

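The values are log2 expression levels of 34760 probe sets on 12 arrays as the authors deposited them. Per the submitters' processing notes they were made with RMA and oligo, whose versions are not given in the sources used here. RMA removes background, aligns the distributions of the arrays and combines the probes of a set on the log2 scale, so differences near or below the array median are compressed and a shift shared by most genes is removed. All columns were matched to samples by the sample identifier in the column name, and samples to groups by title.

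Gene names came from the annotation of the array platform, brought up to date with RefSeq (GRCm38.p6). A lone symbol was found for 21640 probe sets, several for 1321 and none for 11799. The probe set with the highest mean stood for a gene. A gene was tested if it exceeded the array median on at least 3 arrays, which left 11240 of 19937. All 9 regulators passed; Eomes, Il17rb and Il12rb2 did so on 7, 3 and 7 arrays.

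The 5 comparisons were contrasts of 1 model with a mean for each of 4 groups, fitted with lmFit and eBayes of limma 3.58.1 under R 4.3.3, with Benjamini-Hochberg adjustment over all genes tested and a threshold of 0.05. Differences are the group named first minus the group named second, and SEs are moderated. The members and gene lists were chosen with earlier results of these data known. Named are all members, up to 4 genes with the smallest p of each partner list in any of the 5 comparisons, and the 2 nearest profiles of each member called in both Tfh gates over both PD1- gates. Cell type markers, the sort genes, Il21, Il17a and the untested AHR targets are named outside this rule. The fit was tested on simulated data, with 200 of 11240 genes changed in 10 draws: for both Tfh gates over both PD1- gates it recovered 87.3% of changes of 1 log2 unit, and 6.63% of its calls were false. For GFP+ over GFP- Tfh the values were 73.1% and 23.4%, and for GFP+ Tfh over CXCR5-PD1- cells they were 74.5% and 22.2%.

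Same-numbered replicates of CXCR5+PD1- and CXCR5-PD1- cells deviated together, with correlations of 0.210 to 0.353 from their group means. For GFP+ and GFP- Tfh cells the correlations were 0.253, 0.041 and 0.283, and some pairs of the other comparisons also fell short of 0.1. The labels do not say what the replicate numbers mark, so the numbers entered the fit only as an alternative. Other alternatives changed the filter, the moderation, weights, normalisation, the probe set rule and the groups in the fit, left out each replicate in turn, or used replicates 1 and 2 alone; the Xist-high arrays as a block were added after seeing the data.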

Additional observations from a re-analysis of the deposited data

How the results depend on the processing

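Of the 9 regulators' 45 differences over 5 comparisons, computed 790 times under alternatives, 0 changed sign while called, 29 lost and 11 gained a call at an adjusted p of 0.05 in limma. For both Tfh gates over both PD1- gates, Ahr was called in 22 of 22 alternatives, Runx3 in 21 and Rora in 19. With the replicate number as a block, Il23r was called in this comparison (limma adjusted p = 0.00419) and in GFP- and GFP+ Tfh over CXCR5-PD1- cells (0.0316 and 0.0472), and Runx3 lost its call in the last of these (0.0648). With the Xist-high arrays as a block, an alternative chosen after seeing the data, Il23r was called in the same 3 comparisons (0.00332, 0.029 and 0.0442) and Runx3 lost the same call (0.05 after rounding). Runx3 also lost it there with no filter (0.0624), 1 weight per group (0.228) and cyclic loess (0.0549), as did Rora in GFP- Tfh over CXCR5-PD1- cells with no filter (0.0578) or an intensity trend (0.054). The Il17rb difference of both Tfh gates from both PD1- gates was called without replicate 3 of GFP- Tfh cells (0.41 log2 units, 0.0269). Il17rb had passed the filter on 3 arrays, among them replicates 1 and 2 of GFP- Tfh cells. The causes were not tested.

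Genes called for both Tfh gates over both PD1- gates numbered 1167, 1981 with 1 weight per array, 1247 with the replicate block and 883 to 1495 without 1 replicate. For GFP+ over GFP- Tfh the count was 5, with 3 under 1 weight per group, 95 under 1 per array and 6 with the block. With replicates 1 and 2 alone it was 0, where 616 genes had an unadjusted p under 0.05, and with only the 2 groups in the fit it was again 0, where 471 had. It was 3 to 237 without 1 replicate, the highest without replicate 1 of GFP+ Tfh cells. For GFP+ Tfh over CXCR5-PD1- cells it was 697, with 314, 1411 and 814 under 1 weight per group, 1 weight per array and the block, 392 with replicates 1 and 2 alone, 255 with only the 2 groups in the fit and 348 to 1147 without 1 replicate, the lowest without replicate 3 of CXCR5-PD1- cells and the highest without replicate 1 of GFP+ Tfh cells. For GFP- Tfh over CXCR5-PD1- cells it was 429, with 791, 912 and 544 under the same weights and block, 266 with replicates 1 and 2 alone, 665 with only the 2 groups in the fit and 228 to 326 without 1 replicate. For CXCR5+PD1- over CXCR5-PD1- cells it was 0 under every alternative, the block included, with 57 to 498 genes at an unadjusted p under 0.05. Signals near the array median limit what can be read from Tbx21, Eomes, Il17rb and Il12rb2, and the wider spread of the GFP+ Tfh arrays limits every comparison that holds them.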

Other observations

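Between GFP+ and GFP- Tfh cells, limma called 0 of the 13 tested Th1 partners, 0 of 9 Th2 partners and 0 of 10 Th17 partners. At an unadjusted p under 0.05, which 7.37% of all tested genes passed, the partners were Il18r1 (-1.30 log2 units), Cxcr6 (-0.60) and Il18rap (-0.56) of the Th1 list, Il17ra (-0.82) and Ccr4 (-0.77) of the Th2 list and Stat3 (-0.54) of the Th17 list, all below 0, with limma adjusted p-values of 0.381 to 0.618. Without replicate 3 of GFP+ Tfh cells the differences were -0.63 for Il18r1, -0.47 for Ccr4 and -0.33 for Stat3. Without replicate 1 of GFP+ Tfh cells Il18r1 and Il17ra were called (-1.87 and -0.98, limma adjusted p = 0.0415 and 0.0416). Il17ra and Il17rb, whose products form the IL-25 receptor, thus differed by -0.82 ± 0.20 and -0.64 ± 0.19 log2 units (SE), and neither passed.

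Markers of cells outside the CD4+ gate were mostly below the array median. The median of 6 B cell markers lay at -1.33 to -1.14 log2 units from it in GFP+ Tfh cells and at -1.25 to -0.83 in CXCR5-PD1- cells. Pax5, a B cell factor, differed by 0.30 between both Tfh gates and both PD1- gates (limma adjusted p = 0.0193), while the other 5 differed by -0.24 to 0.09. Pax5 exceeded the array median only on the 3 GFP+ Tfh arrays. It thus passed the filter through the group where it was highest, and its call is not independent of the filter. The medians of 9 myeloid and 7 epithelial markers were also below the array median on every array. Of their 3 and 1 tested genes, 0 were called for both Tfh gates over both PD1- gates.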
